A study of Mus musculus with 6 samples.

Results

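Enzymes that move methyl groups and one-carbon units in the liver were followed at the mRNA level in mice whose TRIM24 lacks E3-ligase activity. They were taken by gene name as *Mat1a*, *Gnmt*, *Bhmt*, *Ahcy*, *Cbs*, *Pemt*, *Chdh*, *Nnmt* and *Shmt1*, which are 9 of 21528 genes listed in any of the 6 liver libraries. All 9 passed the filter on low values, together with 12225 genes in all. There were 3 WT and 3 TRIM24-C52/55A libraries, each from the liver of 1 C57BL/6 mouse that was 5 months old and had eaten a 60% fat diet (HFD) for 3 months, so both groups shared the diet and no chow-fed liver is among these libraries. TRIM24-C52/55A mice carry alanine in place of 2 cysteines of the endogenous TRIM24, a constitutive, homozygous knockin present in every tissue and not only in hepatocytes, and WT mice came from the same matings of heterozygotes. The comparison asks how the loss of the ligase activity is reflected in the hepatic transcriptome of HFD-fed mice. The labels do not give the sex of the sequenced mice, although the study describes the HFD-fed mice of this age in its other liver measurements as male. FPKM (fragments per kilobase of transcript, scaled to the mapped fragments of each library) cannot show the substitution itself.

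The methionine cycle makes the methyl donor of the cell. MAT1A, the liver form of methionine adenosyltransferase, joins methionine to ATP to give S-adenosylmethionine (SAM). Methyltransferases then pass the methyl group on: GNMT to glycine, PEMT to phosphatidylethanolamine to make phosphatidylcholine, and NNMT to nicotinamide. What remains is S-adenosylhomocysteine, which AHCY splits into adenosine and homocysteine. Homocysteine either regains a methyl group from betaine through BHMT, or is committed to transsulfuration by CBS. CHDH starts the oxidation of choline to betaine, and SHMT1, the cytosolic serine hydroxymethyltransferase, moves a one-carbon unit between serine and folate. Several of these enzymes are far more abundant in hepatocytes than in other cells.

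Of the 9 transcripts, 4 fell in the TRIM24-C52/55A liver, namely *Mat1a*, *Nnmt*, *Shmt1* and *Ahcy*, and 0 rose. *Mat1a* and *Nnmt* were at 0.565 and 0.561 of their WT means, *Shmt1* at 0.703 and *Ahcy* at 0.778. Among all 12225 genes tested, 6.09% were called lower and 1.64% higher (limma on log2(FPKM + 1), Benjamini-Hochberg adjusted p under 0.05). The mean was below WT for 8 of the 9 genes and above WT for *Cbs* alone (limma unadjusted p = 0.408). In 6 of the 9, namely *Mat1a*, *Nnmt*, *Shmt1*, *Ahcy*, *Pemt* and *Gnmt*, every TRIM24-C52/55A library lay below every WT library, a pattern held by 22.5% of all genes tested. No member had the opposite pattern, which 6.31% of all genes showed. The median log2 fold change was -0.36 over the 9 genes and -0.08 over all genes tested. None of the 4 calls remained without WT replicate 1, WT replicate 3 or TRIM24-C52/55A replicate 1. In these fits 1.78%, 1.74% and 1.65% of all genes were called lower. The log2 fold changes there, in that order, were -0.86, -0.78 and -0.76 for *Mat1a* (-0.85 with all libraries) and -0.86, -0.71 and -0.86 for *Nnmt* (-0.83). They were -0.48, -0.51 and -0.49 for *Shmt1* (-0.51) and -0.40, -0.32 and -0.33 for *Ahcy* (-0.36). *Nnmt* alone remained without WT replicate 2, and *Shmt1* was lost without TRIM24-C52/55A replicate 2. None of the 4 passed either when the filter on low values was dropped and all 21528 genes were tested, of which 1.17% were called lower.

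**Figure D1:**
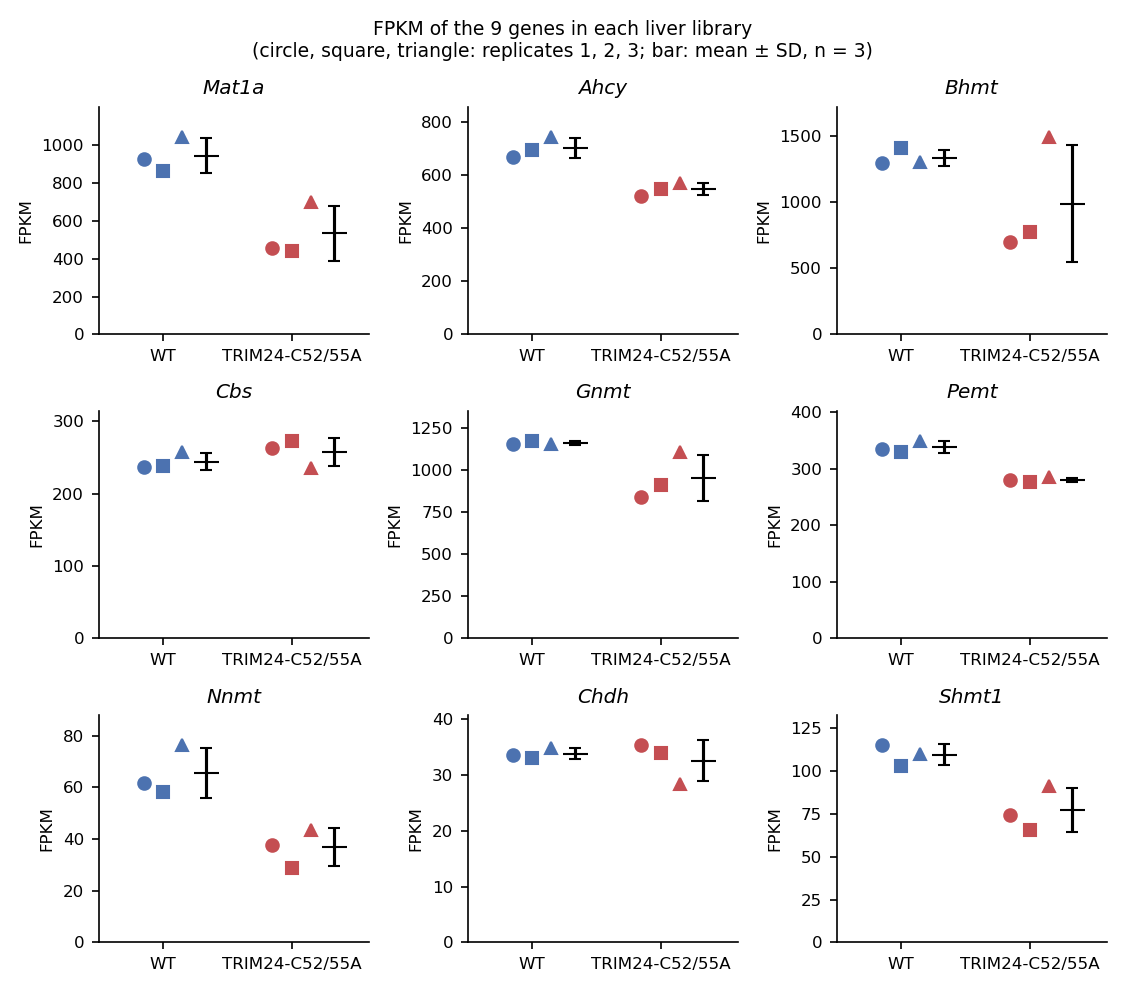
FPKM of the 9 genes (y axes from 0) in each of the 3 WT (blue) and 3 TRIM24-C52/55A (red) liver libraries, with the mean ± SD beside each group. The red points of *Mat1a*, *Ahcy*, *Gnmt*, *Pemt*, *Nnmt* and *Shmt1* all lie below the blue ones, and the red triangle, replicate 3, stands far above the other red points for *Bhmt*.

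*Mat1a* opens the cycle, and the sequences below show how far its transcript differs from that of *Mat2a*, the form of the enzyme that prevails outside the adult hepatocyte. They are stretches of 90 coding bases, *Mat1a* bases 27 to 116 and *Mat2a* bases 24 to 113, counted from the A of the start codon, from GENCODE M21 transcripts (GRCm38), on the coding strand and 5′ to 3′. Capitals mark the 25 bases at which the pair differs.
Mat1a: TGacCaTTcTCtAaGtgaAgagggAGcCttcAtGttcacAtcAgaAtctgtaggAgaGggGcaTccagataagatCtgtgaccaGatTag
Mat2a: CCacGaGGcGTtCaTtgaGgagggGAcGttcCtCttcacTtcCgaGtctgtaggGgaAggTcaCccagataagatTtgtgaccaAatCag
Over the whole aligned coding sequence the pair was 74.24% identical, and no stretch of 31 bases of *Mat1a* occurred in a transcript of another gene, so reads at least that long could be told apart.

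*Mat1a* (ENSMUSG00000037798, chr14:41105035-41124412, plus strand, GRCm38) was read at 926, 861 and 1043 FPKM in WT replicates 1, 2 and 3, against 457, 442 and 701 FPKM in the same order in TRIM24-C52/55A (values are given in replicate order throughout). The groups did not overlap, and replicate 3 stood about midway between the other TRIM24-C52/55A libraries and WT, 50.9% of the way up. The mean was 944 ± 92.4 FPKM (SD, n = 3) in WT and 533 ± 145 FPKM (SD, n = 3) in TRIM24-C52/55A, and the log2 fold change was -0.85 (SE 0.17, limma adjusted p = 0.0245). It was also called under each rescaling of the libraries, with log2 fold changes from -0.73 without the major urinary protein genes to -0.92 on the TPM scale.

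*Mat2a* (ENSMUSG00000053907, chr6:72432799-72439558, minus strand, GRCm38) was listed at 27.0, 31.7 and 30.7 FPKM in WT and at 29.0, 31.7 and 29.1 FPKM in TRIM24-C52/55A, with a log2 fold change of 0.01 (95% interval -0.19 to 0.21, limma adjusted p = 0.973). Its groups overlapped. *Mat1a* was present at 34.3, 27.2 and 34.0 times the FPKM of *Mat2a* in WT and at 15.7, 14.0 and 24.1 times in TRIM24-C52/55A, a ratio that hardly depends on the scaling of a library. The log2 ratio differed by -0.86 with no overlap (two-sided exact permutation p = 0.1, the smallest that 3 against 3 can give, 0.3 after Benjamini-Hochberg adjustment over the 6 ratios computed). *Mat2b*, the regulatory subunit that partners MAT2A, had means of 16.3 ± 0.988 and 15.1 ± 1.81 FPKM (SD, n = 3) and was not called (limma adjusted p = 0.593).

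*Ahcy*, whose product removes S-adenosylhomocysteine, lies at chr2:155059310-155074497 (minus strand, GRCm38, ENSMUSG00000027597). It had 670, 696 and 746 FPKM in WT and 524, 549 and 572 FPKM in TRIM24-C52/55A, and the replicates of each group lay close together. The mean fell from 704 ± 38.3 to 548 ± 24.2 FPKM (SD, n = 3), with a log2 value of -0.36 (SE 0.08, limma adjusted p = 0.0303). With median-of-ratios scaling the value was -0.26 and no longer passed (limma adjusted p = 0.0902). Of the 31-base stretches of its transcript, 79.4% also occurred in other genes, chiefly *Gm4737* (76.5%), and how reads were divided between them is not given in the sources used here. *Gm4737* itself was listed at 62.5 to 65.8 FPKM in WT and at 45.5 to 52.04 FPKM in TRIM24-C52/55A, so the assigned reads of the copy were lower in the same libraries. *Ahcyl1* and *Ahcyl2*, relatives without an established part in the cycle itself, were at 26.7 ± 0.507 and 25.5 ± 3.23 FPKM and at 3.43 ± 0.265 and 4.42 ± 0.206 FPKM (SD, n = 3), and neither was called, although *Ahcyl2* was higher in every TRIM24-C52/55A library than in any WT library. *Adk* removes the adenosine that AHCY releases, and it fell from 397 ± 14.9 to 308 ± 24.3 FPKM (SD, n = 3, log2 fold change -0.37, limma adjusted p = 0.0337).

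The sequence upstream of *Ahcy* and of *Shmt1* is given here because they are the called members with an entry in the RefSeq promoter table (7 of 9 members matched; *Mat1a* and *Nnmt* had none). Part of the *Shmt1* window lies in an exon of a non-coding transcript of the gene in GENCODE M21. Each run is the 250 bases before the annotated start, RefSeq GRCm38.p6, minus strand, 5′ to 3′, at chr2:155074498-155074747 for *Ahcy* and chr11:60811266-60811515 for *Shmt1*. Capitals mark matches, on either strand, to AGGTCA (a nuclear receptor half-site, whose reverse is TGACCT) and CCAAT (reverse ATTGG).
Ahcy: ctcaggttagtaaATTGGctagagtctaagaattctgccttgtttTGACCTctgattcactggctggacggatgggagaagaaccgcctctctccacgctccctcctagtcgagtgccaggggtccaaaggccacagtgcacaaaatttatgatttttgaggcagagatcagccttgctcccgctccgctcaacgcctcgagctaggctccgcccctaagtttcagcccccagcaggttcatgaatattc
Shmt1: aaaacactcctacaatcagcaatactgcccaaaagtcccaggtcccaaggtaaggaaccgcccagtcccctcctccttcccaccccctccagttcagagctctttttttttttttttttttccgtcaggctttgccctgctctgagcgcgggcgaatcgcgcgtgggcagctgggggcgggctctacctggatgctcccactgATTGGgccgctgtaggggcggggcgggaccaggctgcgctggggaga
*Ahcy* held 1 match to AGGTCA and 1 to CCAAT, and *Shmt1* held 1 match to CCAAT. Among 32851 upstream windows of the same length, 14.02% held AGGTCA and 33.85% held CCAAT. In *Bhmt* the corresponding window (chr13:93637759-93638008) held 3 matches to AGGTCA and 1 to CCAAT. Part of it lies inside *Bhmt* as annotated in GENCODE M21, which extends to 93637961. The AGGTCA matches at 72 to 67 and 47 to 42 bases before the RefSeq start, and the CCAAT match, are in that part. *Bhmt2*, which lies beside *Bhmt* on the chromosome, held no match to any of the motifs searched. Besides AGGTCA and CCAAT these were GTTAAT (in 6.432% of all windows), TTCNNNGAA (7.02%), CACGTG (6.021%) and TATAAA (12.37%). These matches describe the letters only.

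*Bhmt* was the most abundant of the 9 transcripts in WT liver and behaved differently in 1 library. It lies at chr13:93616675-93637961 (minus strand, GRCm38, ENSMUSG00000074768). Its WT values were 1297, 1406 and 1300 FPKM, against 695, 770 and 1494 FPKM in TRIM24-C52/55A. Replicates 1 and 2 were thus below all WT libraries, and replicate 3 was above all of them, at 2.04 times the mean of the other TRIM24-C52/55A libraries. The means were 1335 ± 62.0 and 986 ± 441 FPKM (SD, n = 3), and the log2 fold change of -0.52 had a 95% interval from -1.10 to 0.06 (limma adjusted p = 0.262). Without TRIM24-C52/55A replicate 3 the value was -0.87 (limma adjusted p = 0.00250), and no leave-out of another library gave a call. Of all genes tested, 192 (1.57%) shared this pattern, with TRIM24-C52/55A replicates 1 and 2 below all WT libraries and replicate 3 above them.

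*Bhmt2* encodes a related methyltransferase that uses S-methylmethionine in place of betaine. The first 90 coding bases of the pair are printed to show that the transcripts can be separated, with capitals at the 29 bases that differ (GENCODE M21 transcripts, GRCm38, coding strand, 5′ to 3′).
Bhmt: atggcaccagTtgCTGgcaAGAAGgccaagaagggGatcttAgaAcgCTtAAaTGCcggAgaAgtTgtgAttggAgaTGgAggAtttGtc
Bhmt2: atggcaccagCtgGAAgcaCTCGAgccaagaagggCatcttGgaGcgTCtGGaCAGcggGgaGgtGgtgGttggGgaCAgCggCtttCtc
Over the aligned coding sequence they were 75.37% identical, and 1.63% of the 31-base stretches of *Bhmt* occurred in *Bhmt2*. *Bhmt2* had 89.1, 92.7 and 91.7 FPKM in WT and 72.9, 71.4 and 89.8 FPKM in TRIM24-C52/55A (log2 fold change -0.23, limma adjusted p = 0.205). Replicate 3 was again the TRIM24-C52/55A library nearest to WT, here inside the WT range. A larger part of *Bhmt*, 63.4%, is shared with *Gm5096*, which was listed at 20.2, 23.4 and 19.4 FPKM in WT and at 9.59, 13.1 and 26.3 FPKM in TRIM24-C52/55A. The copy thus followed the order of *Bhmt* in the TRIM24-C52/55A libraries, and the level of *Bhmt* is uncertain by whatever reads were divided between them.

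The other remethylation route uses folate. *Mtr*, methionine synthase, was scarce in these livers, with 0.951, 1.13 and 0.658 FPKM in WT and 1.01, 0.715 and 0.946 FPKM in TRIM24-C52/55A, and overlapped between groups (log2 fold change -0.01, limma adjusted p = 0.970). Its reductase *Mtrr* was at 1.33 ± 0.181 and 1.49 ± 0.141 FPKM (SD, n = 3) and was not called. The log2 ratio of *Bhmt* to *Mtr* differed by -0.51 between genotypes and the groups overlapped (two-sided exact permutation p = 0.3, adjusted 0.45).

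**Figure D2:**
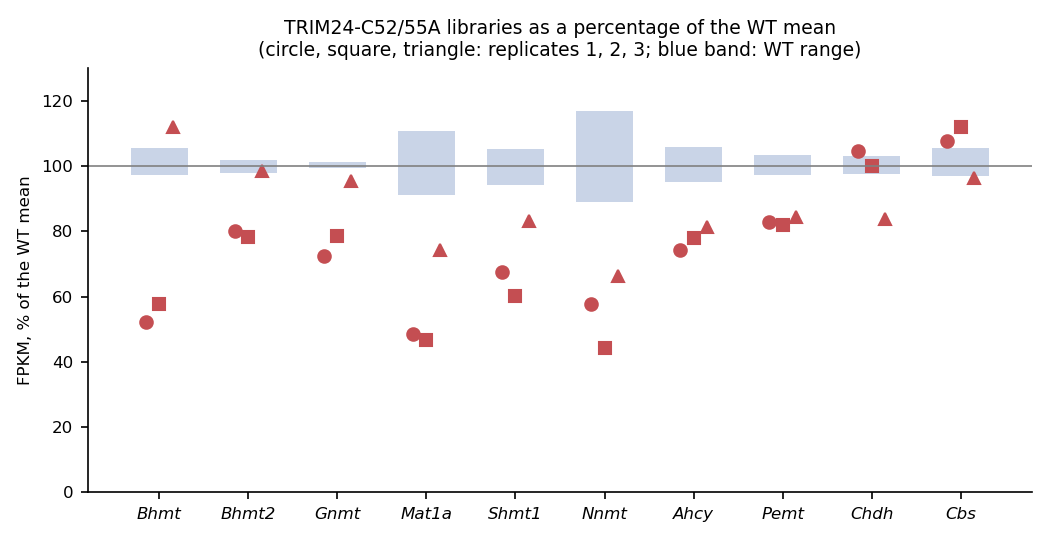
FPKM of each TRIM24-C52/55A library as a percentage of the WT mean (y axis) for the 9 genes and *Bhmt2*, with circles, squares and triangles for replicates 1, 2 and 3 and a blue band for the WT range. The triangle is the highest red point for 7 of the 9 genes and for *Bhmt2*, lies above the band for *Bhmt*, and is the lowest point for *Chdh* and *Cbs*.

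The plot of percentages of the WT mean shows that TRIM24-C52/55A replicate 3 was the highest of its group for 7 of the 9 genes, whereas it was the highest for 31.1% of all genes tested. Its place between the mean of the other TRIM24-C52/55A libraries and the WT mean was 9.81% for *Pemt*, 21.4% for *Ahcy*, 31.4% for *Nnmt*, 50.9% for *Mat1a*, 53.5% for *Shmt1*, 80.7% for *Gnmt* and 126% for *Bhmt*. Together the 9 genes made up 0.749% to 0.787% of summed FPKM in WT and 0.477%, 0.496% and 0.673% in TRIM24-C52/55A replicates 1, 2 and 3. Neither the labels nor the tables give a batch for any library.

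*Gnmt*, the glycine methyltransferase that uses up excess SAM, lies at chr17:46725664-46729168 (minus strand, GRCm38, ENSMUSG00000002769). It had 1157, 1176 and 1154 FPKM in WT, a spread of 1.04% of the mean, and 843, 913 and 1108 FPKM in TRIM24-C52/55A. The groups did not overlap, but replicate 3 came close to the lowest WT library. The log2 fold change of -0.29 (SE 0.11) missed the threshold (limma adjusted p = 0.1402) and passed it without replicate 3 (-0.41, limma adjusted p = 0.0312). In the deposited tables the interval of *Gnmt* spans 389 kb and is shared with 17 other genes, where the annotated gene spans 3.505 kb, and what this did to its FPKM is not known. The intervals of *Ahcy* (40.77 kb against 15.19 kb annotated, shared with 2 other genes) and *Shmt1* (34.2 kb against 23.61 kb, shared with 1) were also longer than the genes, and that of *Bhmt* was shared with 1 other gene.

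*Pemt* (chr11:59970614-60046489, minus strand, GRCm38, ENSMUSG00000000301) is the phosphatidylethanolamine methyltransferase, a large consumer of SAM in liver. It had 335, 328 and 349 FPKM in WT and 280, 277 and 284 FPKM in TRIM24-C52/55A. These were the tightest replicates among the 9 genes in TRIM24-C52/55A liver, with no overlap between groups. The log2 fold change was -0.27 (SE 0.07) with a 95% interval from -0.42 to -0.11, just short of the threshold (limma adjusted p = 0.0513). It passed when the filter was raised to a mean of 1 FPKM (limma adjusted p = 0.0487) or on the TPM scale (limma adjusted p = 0.0196), and it was -0.09 after quantile scaling (limma adjusted p = 0.489). The ratio of *Gnmt* to *Pemt* was 3.46, 3.58 and 3.30 in WT and 3.01, 3.30 and 3.90 in TRIM24-C52/55A, with overlapping groups and a difference in log2 ratio of -0.03 (two-sided exact permutation p = 0.8, adjusted 0.8).

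*Nnmt* (chr9:48591877-48605153, minus strand, GRCm38, ENSMUSG00000032271) methylates nicotinamide and is known in liver and fat for tying SAM use to NAD metabolism. It had 61.8, 58.2 and 76.5 FPKM in WT and 37.9, 28.9 and 43.5 FPKM in TRIM24-C52/55A. The groups did not overlap, and the lowest value was that of replicate 2. The mean fell from 65.5 ± 9.73 to 36.8 ± 7.35 FPKM (SD, n = 3), with a log2 value of -0.83 (SE 0.16, limma adjusted p = 0.0201). It remained called with median-of-ratios scaling (-0.72, limma adjusted p = 0.0454) and missed the threshold with quantile scaling (-0.68, limma adjusted p = 0.0505). The ratio of *Nnmt* to *Gnmt* did not overlap between genotypes either (difference in log2 ratio -0.53, two-sided exact permutation p = 0.1, adjusted 0.3). The defining adipocyte transcripts *Adipoq*, *Plin1* and *Lep* summed to 11.8 FPKM in TRIM24-C52/55A replicate 2 and to at most 0.154 FPKM in every other library, where they were at or near 0. *Nnmt* was lowest in that library, and without it the log2 fold change of *Nnmt* was -0.67 (limma adjusted p = 0.0252). Over the whole list of 13 adipocyte genes, many of which hepatocytes also express, 1 rose and 2 fell, with summed levels of 2766 to 3268 FPKM in WT and 2647 to 2696 FPKM in TRIM24-C52/55A.

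*Cbs* (chr17:31608894-31637238, minus strand, GRCm38, ENSMUSG00000024039), the entry to transsulfuration, had 236, 239 and 258 FPKM in WT and 263, 273 and 236 FPKM in TRIM24-C52/55A. The groups overlapped because of replicate 3, which was the lowest of all. The log2 fold change was 0.07 with a 95% interval from -0.12 to 0.26 (limma adjusted p = 0.660). With median-of-ratios, quantile or Mup-free scaling every TRIM24-C52/55A library lay above every WT library, at 0.18, 0.26 and 0.19, and none of these passed the test. *Cbs* and *Bhmt*, the competing users of homocysteine, stood at ratios of 0.182, 0.170 and 0.199 in WT and 0.379, 0.355 and 0.158 in TRIM24-C52/55A. The difference in log2 ratio was 0.59 with overlapping groups (two-sided exact permutation p = 0.4, adjusted 0.48).

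*Chdh* (chr14:30009023-30040527, plus strand, GRCm38, ENSMUSG00000015970), which supplies the betaine pathway, was the least abundant member. It had 33.6, 33.1 and 34.9 FPKM in WT and 35.5, 33.9 and 28.4 FPKM in TRIM24-C52/55A, and the groups overlapped. The log2 fold change was -0.06 with a 95% interval from -0.28 to 0.16 (limma adjusted p = 0.765), and its sign turned with the scaling and without replicate 3. The interval of *Chdh* in the tables is 518 kb long and shared with 2 other genes, against 31.5 kb in the annotation.

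*Shmt1* (chr11:60788104-60811718, minus strand, GRCm38, ENSMUSG00000020534) had 116, 103 and 110 FPKM in WT and 74.2, 65.9 and 91.3 FPKM in TRIM24-C52/55A, without overlap. The mean fell from 110 ± 6.19 to 77.1 ± 12.9 FPKM (SD, n = 3), with a log2 value of -0.51 (SE 0.12, limma adjusted p = 0.0373). With median-of-ratios scaling it was -0.41 and missed the threshold (limma adjusted p = 0.114). Its mitochondrial counterpart *Shmt2* had 82.0, 80.4 and 91.7 FPKM in WT and 63.6, 71.2 and 71.3 FPKM in TRIM24-C52/55A, also without overlap, and was not called (log2 fold change -0.30, limma adjusted p = 0.0746). The ratio of *Shmt1* to *Shmt2* overlapped between the genotypes, with a difference in log2 ratio of -0.22 (two-sided exact permutation p = 0.2, adjusted 0.4).

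**Figure D3:**
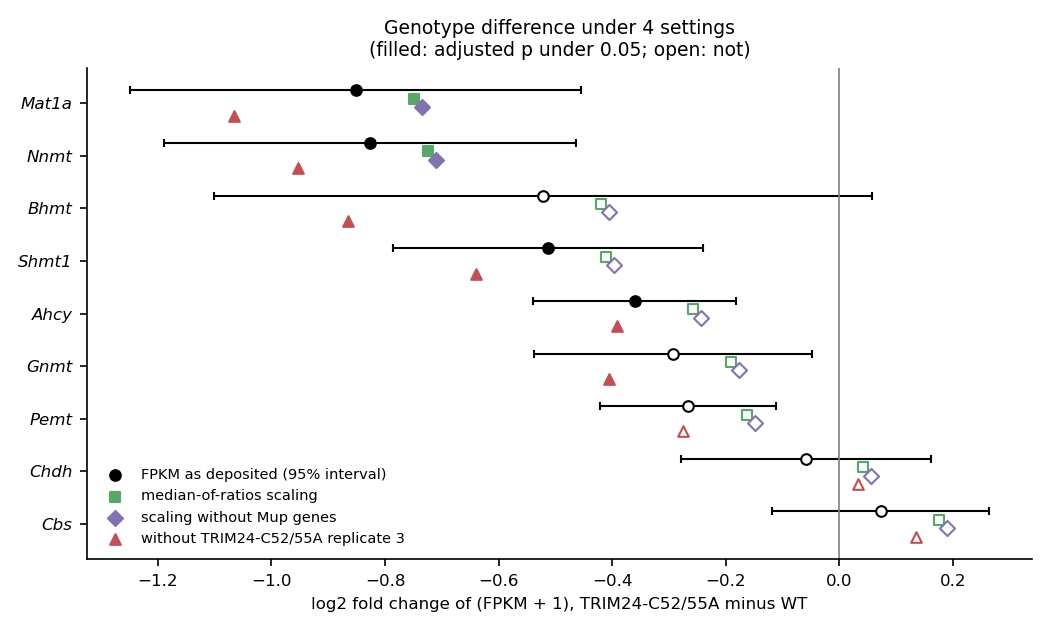
Log2 fold change of FPKM + 1, TRIM24-C52/55A minus WT (x axis), for the 9 genes (y axis) under 4 settings, with the 95% interval for the FPKM as deposited and filled symbols where the limma adjusted p is under 0.05. *Mat1a* and *Nnmt* are filled in all 4, and the green and purple symbols, which stand for rescaled libraries, lie to the right of the black ones.

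The plot of fold changes under 4 settings shows that the order of the genes was similar while the calls were not. Among the genes that set the scale, the major urinary protein (Mup) genes, secreted carriers made in large amounts by male liver, took 5.04% to 8.24% of summed FPKM in WT and 17.5% to 19.0% in TRIM24-C52/55A. Rescaling to the remaining genes, chosen after seeing the data, moved the median log2 fold change of all genes from -0.08 to 0.02, and left *Mat1a* (-0.73, limma adjusted p = 0.0478) and *Nnmt* (-0.71, limma adjusted p = 0.0405) as the called members. Median-of-ratios scaling left the same pair, quantile scaling left *Mat1a*, and TPM scaling added *Pemt* to the 4. Over all genes, 200 were called higher and 744 lower in FPKM as deposited, 250 and 406 with median-of-ratios scaling, 255 and 378 with quantile scaling, and 258 and 361 without the Mup genes.

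FPKM is per length, so levels can be compared between genes, within the limits given for shared intervals (*Gnmt*, *Ahcy*, *Shmt1*, *Bhmt* and *Chdh*) and shared sequence (*Bhmt* and *Ahcy*). In WT liver the order of mean FPKM was *Bhmt*, *Gnmt*, *Mat1a*, *Ahcy*, *Pemt*, *Cbs*, *Shmt1*, *Nnmt* and *Chdh*. Every neighbouring pair in this order was separated by its WT libraries without overlap, from *Bhmt* at 1297 to 1406 FPKM and *Gnmt* at 1154 to 1176 FPKM down to *Nnmt* at 58.2 to 76.5 FPKM and *Chdh* at 33.1 to 34.9 FPKM. In TRIM24-C52/55A liver the ranges of *Bhmt* (695 to 1494 FPKM) and *Gnmt* (843 to 1108 FPKM) overlapped, as did those of *Mat1a* (442 to 701 FPKM) and *Ahcy* (524 to 572 FPKM). *Nnmt* (28.9 to 43.5 FPKM) also came to overlap *Chdh* (28.4 to 35.5 FPKM).

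The genes whose values ran most like those of the called members over the 6 libraries were listed by Pearson's r of log2(FPKM + 1), a description in which genotype itself is part of the likeness. For *Mat1a* they were *Ociad1* (r = 0.996) and *Ciart* (r = 0.996). For *Ahcy* they were *Pnldc1* (r = 0.999) and *Aldh4a1* (r = 0.998), and for *Shmt1* they were *Pbdc1* (r = 0.999) and *Aldh1a7* (r = 0.995). For *Nnmt* they were *Fam45a* (r = 0.997) and *Mocs2* (r = 0.997). With n = 6 libraries and 12225 genes to choose from, high values of r are readily found.

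The pathway round the 9 genes was read from 7 lists holding 83 further genes, of which 81 were tested. Of these 7 fell (8.64%, against 6.09% of all genes tested) and 1 rose. The median log2 fold change was -0.15, against -0.08 over all genes, and 72.8% were below WT, against 65.5%. In FPKM as deposited the share that fell was thus near that of all genes. On the TPM scale 20 of the 81 fell, against 11.1% of all genes, and 11 without TRIM24-C52/55A replicate 3, against 4.88%. With median-of-ratios scaling 3 fell, against 3.32%. *Chpt1*, the cholinephosphotransferase of the other route to phosphatidylcholine, fell most, from 124 ± 14.0 to 57.7 ± 4.11 FPKM (SD, n = 3, log2 fold change -1.09, limma adjusted p = 0.00110). *As3mt*, a SAM-dependent arsenite methyltransferase, had a log2 fold change of -0.72 (limma adjusted p = 0.0143). *Aox3*, an aldehyde oxidase that acts on methylated nicotinamide among other substrates, was the gene that rose, from 106 ± 16.7 to 231 ± 43.6 FPKM (SD, n = 3, log2 fold change 1.11, limma adjusted p = 0.00672).

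**Figure D4:**
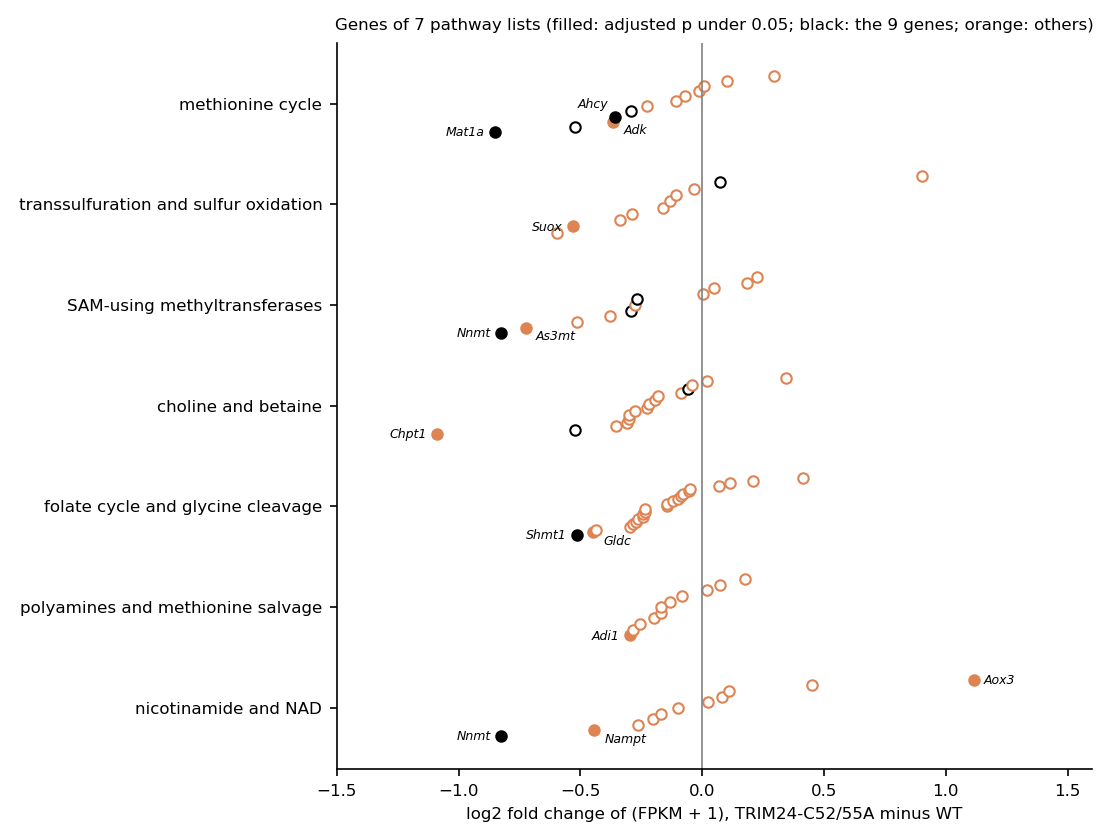
Log2 fold change of FPKM + 1, TRIM24-C52/55A minus WT (x axis), for the tested genes of 7 pathway lists (y axis), the 9 genes in black and others in orange, filled and named where the limma adjusted p is under 0.05. Most points lie left of 0, and *Aox3* at 1.11 is the single filled point to the right.

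The plot of pathway lists shows where the calls fell. In the methionine cycle list *Adk* was the 1 call among 8 further genes, with a median of -0.04. In transsulfuration and sulfur oxidation, *Suox*, sulfite oxidase, was the 1 call among 9, at 70.9 ± 8.48 and 48.7 ± 4.28 FPKM (SD, n = 3, log2 fold change -0.53, limma adjusted p = 0.0228). *Cdo1*, cysteine dioxygenase, was more abundant at 930 ± 68.8 and 738 ± 68.4 FPKM (SD, n = 3), did not overlap, and missed the threshold (limma adjusted p = 0.0781). *Cth*, which follows *Cbs*, had 181 ± 38.4 and 177 ± 36.4 FPKM (SD, n = 3) and overlapped.

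Among 8 further SAM-using methyltransferases, *As3mt* was the 1 call, and 4 were below and 4 above WT. *Mettl7b*, an abundant one, was at 458 ± 35.0 and 377 ± 13.7 FPKM (SD, n = 3), did not overlap between groups and was not called (limma adjusted p = 0.0796). In the choline and betaine list *Chpt1* was the 1 call among 14, with 12 below WT and a median of -0.22. *Pcyt2*, of phosphatidylethanolamine synthesis, was at 378 ± 30.1 and 307 ± 25.0 FPKM, and *Aldh7a1*, which can oxidize betaine aldehyde, at 287 ± 16.1 and 232 ± 22.0 FPKM (SD, n = 3). Neither overlapped between groups and neither passed (limma adjusted p = 0.0903 and 0.0796).

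The folate cycle and glycine cleavage list held 22 further genes tested, of which *Gldc*, the decarboxylase of glycine cleavage, was called, at 72.04 ± 7.88 and 52.4 ± 3.63 FPKM (SD, n = 3, log2 fold change -0.45, limma adjusted p = 0.0330). *Aldh1l1* (287 ± 8.20 and 261 ± 31.6 FPKM) and *Ftcd* (168 ± 3.96 and 183 ± 24.3 FPKM), abundant folate enzymes of hepatocytes, overlapped between the groups (SD, n = 3). *Adi1*, of methionine salvage, was the 1 call among 11 genes of that list, at 98.3 ± 4.63 and 79.9 ± 3.13 FPKM (SD, n = 3, log2 fold change -0.30, limma adjusted p = 0.0482). *Oaz1*, the antizyme that restrains polyamine synthesis, was at 313 ± 18.2 and 262 ± 21.8 FPKM (SD, n = 3) without overlap and without a call (limma adjusted p = 0.118). In the list of nicotinamide and NAD, *Nampt*, the salvage enzyme that competes with NNMT for nicotinamide, fell from 10.8 ± 0.415 to 7.70 ± 0.767 FPKM (SD, n = 3, log2 fold change -0.45, limma adjusted p = 0.0285), and *Qprt* was at 85.2 ± 2.07 and 86.8 ± 7.10 FPKM (SD, n = 3). The 7 lower calls of the 7 lists became 20 on the TPM scale, and 3, 2 and 3 with median-of-ratios, quantile and Mup-free scaling, as the share of all genes called lower went from 6.09% to 11.1% on the TPM scale and to 3.32%, 3.09% and 2.95% with the others.

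Markers of cell types and of hepatocyte zones were read in the same libraries. Hepatocyte transcripts were abundant in all 6 libraries, with *Apoa1* at 5556 to 8183 FPKM and *Hnf4a* at 146 to 158 FPKM. Of the 5 hepatocyte markers found, *Cps1*, of the urea cycle, rose from 321 ± 37.1 to 498 ± 78.0 FPKM (SD, n = 3, log2 fold change 0.63, limma adjusted p = 0.0281), and *Tat* was at 620 ± 123 and 417 ± 120 FPKM (SD, n = 3) without a call. Summed markers of pericentral hepatocytes, those next to the central vein, were 4058 to 5277 FPKM in WT and 2657 to 3165 FPKM in TRIM24-C52/55A, and 5 of 8 fell, among them *Glul* (log2 fold change -1.06, limma adjusted p = 0.000288) and *Oat* (-1.78, limma adjusted p = 0.00955). *Cyp1a2* of the same list was above WT without overlap (74.7 to 121 FPKM in WT, 123 to 135 FPKM in TRIM24-C52/55A) and *Axin2* overlapped (1.65 to 1.93 FPKM and 1.59 to 2.35 FPKM), neither with a call. Replicate 3 was the highest TRIM24-C52/55A library for 5 of the 8 and for their sum (2930, 2657 and 3165 FPKM), as for 7 of the 9 genes, but not for *Glul* (290, 274 and 282 FPKM). Summed periportal markers were 3511 to 3710 FPKM and 3451 to 4106 FPKM, with 2 of 8 higher and 1 lower. *Cyp2f2* (log2 fold change 0.66, limma adjusted p = 0.00623) and *Cdh1* (1.26, limma adjusted p = 0.0482) rose. *Hsd17b13* fell (-0.44, limma adjusted p = 0.0348), and *Hal* was above WT without overlap and without a call (limma adjusted p = 0.0612). All 13 male-biased liver genes rose in FPKM as deposited, from summed levels of 5947 to 12646 FPKM to 33919 to 37184 FPKM, and 3 of 8 tested female-biased genes fell. Summed Kupffer cell and macrophage markers were 166 to 216 FPKM in WT and 144 to 193 FPKM in TRIM24-C52/55A. The part that these zonal and sex-biased genes have in the values of the 9 genes was not tested, and in bulk liver fewer cells of a type and less RNA per cell cannot be told apart.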

How the data were processed

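RNA-Seq of liver was measured in 3 WT and 3 TRIM24-C52/55A mice, put into groups by the genotype in the labels. For each mouse the authors deposited a table of FPKM per gene. The submitters' processing notes name bcl2fastq, Salmon 0.14.0, DESeq2 1.30.0 and GRCm38 without their roles, so how the FPKM were made is not given in the sources used here. No read totals were used and depth in reads is unknown. The steps of the lowest FPKM placed the relative depths of the libraries between 0.963 and 1.02 of WT replicate 1. Summed FPKM were 644619 to 648221 in WT and 673244 to 676791 in TRIM24-C52/55A. Libraries are taken as separate mice.

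Values were log2(FPKM + 1) for genes averaging 0.5 FPKM or more, so fold changes of low genes are understated. Genotypes were compared across all genes with limma 3.58.1 (R 4.3.3, trended empirical Bayes, two-sided, Benjamini-Hochberg, adjusted p under 0.05), tested on simulated data first. Ratios were compared by exact permutation, where the smallest two-sided p is 0.1. The 15 alternatives changed the pseudocount, filter, scaling, variance model or block, or left out 1 library. The scaling without Mup genes was added after seeing the data.

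All members are named, with up to 4 called genes and the 2 most abundant genes of each pathway list, the paralogues, and genes of the ratios, except 1 gene that is not reported here. The members and lists were chosen with earlier results of these data known. Gene coordinates are from GENCODE M21 (GRCm38) by gene ID, and shared sequence was counted as identical stretches of 31 bases between annotated transcripts. *Alb* was not analysed here.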

Additional observations from a re-analysis of the deposited data

How the results depend on the processing

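Over 15 alternatives the direction was the same as reported for every member but *Chdh*, whose log2 fold change of -0.06 became 0.041 with median-of-ratios scaling, 0.094 with quantile scaling, 0.055 without the Mup genes and 0.033 without TRIM24-C52/55A replicate 3. *Mat1a* and *Nnmt* each passed in 10 of the 15, *Ahcy* and *Shmt1* in 5, *Pemt* in 2, and *Gnmt* and *Bhmt* in 1. The 4 members called lower became 0 with no filter, 2 with median-of-ratios scaling, 1 with quantile scaling, 2 with no variance trend and 2 without the Mup genes, and 0 to 6 when 1 library was left out. The 944 genes called became 347 with no filter (95 higher, 252 lower), 1555 with TPM scaling (1358 lower) and 619 without the Mup genes (361 lower). Lower calls were 406 with median-of-ratios scaling and 378 with quantile scaling. Leaving out 1 library gave 296 to 1272 calls, 88 to 239 higher and 202 to 1033 lower. The 7 lower calls of the pathway lists became 1 with no filter, 20 with TPM scaling, 3 with median-of-ratios scaling, 2 with quantile scaling, 4 with no variance trend and 3 without the Mup genes, and 1 to 11 with 1 library left out. The 1 higher call became 2 with median-of-ratios, quantile and Mup-free scaling. Under the same 3 scalings 1 member, *Cbs*, was higher without overlap, where FPKM as deposited gave 0, as were 12.1%, 12.5% and 13.7% of all genes against 6.31%. The 6 members lower without overlap became 5 with median-of-ratios and Mup-free scaling, where *Gnmt* overlapped, beside 14.2% and 12.9% of all genes against 22.5%. The log2 ratio of *Gnmt* to *Pemt* ranged from -0.13 to 0.056 with 1 library left out and turned positive when WT replicate 2 (0.00033) or TRIM24-C52/55A replicate 1 (0.056) was the one left out. The cause of these changes was not tested.

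Same-numbered libraries deviated together across genes with r of -0.12, -0.10 and 0.00, which cannot settle whether the numbers mark pairs of mice. With the replicate block 578 genes were called (422 lower), *Mat1a*, *Nnmt* and *Shmt1* among the members, and 3 lower calls of the pathway lists. The limma adjusted p fell to 0.0127 for *Mat1a* and 0.00896 for *Nnmt*, and rose to 0.0469 for *Shmt1* and 0.0556 for *Ahcy*. With the pairing by number the smallest exact p of a ratio is 0.25. With 3 mice a group and no read counts, differences of the size seen for *Pemt* or *Shmt2* lie near the threshold. For the scarce *Mtr* the log2 fold change of -0.01 had an SE of 0.13, so a small change in either direction cannot be told from none. How the level of a gene affects what can be detected was not tested.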
